A study of Mus musculus with 5 samples.

Results

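Molecular chaperones are the proteins that help other proteins to fold, keep unfolded chains from clumping, or hand them over for degradation. This account follows the chaperone genes and their relatives in mouse macrophages exposed to bacterial lipopolysaccharide (LPS). They were taken by gene symbol: every symbol beginning with Hsp, Dnaj, Pfdn or Fkbp, the genes Cct2 to Cct8 of the CCT complex, and Tcp1. The symbols matched 168 probes that carry a single gene symbol, for 81 symbols. Of these, 78 genes, measured by 156 probes, had values on all 5 arrays, out of 8637 genes and 13782 probes in all. Cct3, Fkbp5 and Dnajc14 lacked a value on at least 1 array, and 12 probes were left out for that reason. No probe of Hsp90ab1, Hspa1b or Cct2 entered, and 1 more probe carries the symbols of both Hspa8 and Atp2a2 and was kept apart. Some genes match by name alone, among them Hspb11 and Cct8l1. Hspg2 encodes perlecan, a proteoglycan of basement membranes, and Hspbap1 a protein that binds a small heat shock protein.

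The macrophages were grown from bone marrow of C3H/ARC mice in culture with human CSF-1, which makes marrow precursors become macrophages. They were left without LPS (0 h) or exposed to LPS of Salmonella minnesota at 10 µg per ml for 0.5, 2, 7 or 21 h. Each time was measured on 1 two-colour cDNA array, on which the other channel held total RNA of C57BL6/J whole embryo of day 17.5. Every comparison therefore sets 1 array against 1 other with no replicate, so there is no test and no p-value, and the 4 comparisons share the 0 h array. The labels do not say how many mice gave cells.

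A level here is the log2 ratio of a gene to the whole embryo, minus the median of its array, and a change is the level at a time minus the level at 0 h. The deposited log ratios were read as log10, a base that the labels do not state. If the base was 2, every log2 value here is 3.32 times too large. The direction, macrophage over embryo, is likely from marker genes but not stated, and which dye each channel carried is not settled. With the other direction, higher and lower would change places throughout. A level says how a gene stands in macrophages relative to the embryo, not how abundant its RNA is. In RNA of whole cultures, fewer cells of a type and less RNA per cell cannot be told apart.

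The labelled cell type was checked by its markers. Of 26 listed macrophage markers 10 were measured, with median levels of 1.75, 1.83, 1.86, 1.59 and 1.43 in order of time, and 8 or 9 of them lay above the array median. Of 34 whole-embryo markers 28 were measured, with medians between -1.98 and -1.64 and none above the array median. The macrophage marker Cd68 was among those below the median, at -0.49 at 0 h. Of the other cell types listed, stromal markers (7 of 7 measured) had median levels from -4.16 to -3.66. At 0 h single stromal markers ran from -5.29 (Col1a2) to -0.88 (Col3a1). Col1a1, Col1a2, Col3a1, Sparc and Postn are also on the whole-embryo list, so the low stromal levels are no separate check. Neutrophil markers (6 of 10 measured) had median levels of 0.30, 0.52, 0.21, 0.24 and -0.34. The B-cell markers measured (2 of 6) had median levels of -0.90, 0.28, 0.47, 0.43 and 0.23 in order of time, so that all 4 later arrays stood above 0 h. The T- and NK-cell markers (3 of 8) had median levels of -0.23, -0.35, -0.11, -0.03 and -0.23, with a median change of 0.48 at 7 h. The part of such cells in the chaperone values was not tested. The stimulus itself was visible: Il1a, a cytokine gene of the LPS response, lay 12.1-fold above 0 h at 2 h and 36.9-fold at 7 h.

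The 0.5 h and 2 h arrays carry many high ratios in stretches of neighbouring probe numbers. When the probe numbers were divided into 207 runs of 96, 94 runs had at least 10% of probes 2-fold or more above 0 h at one of these times. These runs are called affected here. They hold 45.3% of all probes and 63 of the 156 chaperone probes, and 61 of the 78 genes have a probe outside them. Leaving out affected runs in itself lowers the early counts of high genes, since the runs were picked by them.

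Chaperones work in families. Hsp70 proteins bind short exposed stretches of a chain with energy from ATP, and J-proteins (the Dnaj genes) bring them clients and set off ATP hydrolysis. Hsp90 acts later, on kinases, receptors and other near-folded clients. Hsp60 with its lid Hsp10 in mitochondria, and CCT in the cytosol, are barrels in which a chain folds. Small heat shock proteins hold unfolded chains without ATP, prefoldin passes actin and tubulin to CCT, and Fkbp proteins turn peptide bonds at proline. In stressed cells heat shock factor turns on the cytosolic genes, and the unfolded protein response those of the endoplasmic reticulum (ER). In macrophages, chaperones of the ER fold secreted proteins such as cytokines and the subunits of Toll-like receptors.

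Most chaperone genes stayed near their level in untreated cells. The number within 1.5-fold of 0 h was 66, 59, 64 and 71 of 78 at 0.5, 2, 7 and 21 h, against 82.9%, 72.4%, 77.7% and 84.4% of all genes. At 0.5 h 1 gene lay at least 2-fold higher (5.95% of all genes) and none lower (1.01%). At 2 h 7 lay at least 2-fold higher (12.4%) and none lower (1.1%). At 7 h 1 lay higher (4.08%) and 1 lower (3.16%). At 21 h no chaperone gene reached 2-fold in either direction, where 3.05% of all genes lay higher and 1.45% lower. The median change of the 78 genes was 0.12, 0.02, 0.01 and -0.03, beside 0.08, 0.07, -0.0003 and 0.02 over all genes. Over the 5 arrays, 63 of 78 chaperone genes spanned less than 2-fold, against 72% of all genes. These counts are descriptions of 5 arrays.

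Outside the affected runs the picture at the early times was narrower. Of the 61 genes with a probe there, none lay 2-fold higher at 0.5 h (1.28% of 5996 genes) or lower (0.984%). At 2 h 1 lay higher (4.22%) and none lower (1.55%). At 7 h 2 lay higher (4.52%) and 1 lower (2.87%), and at 21 h 1 lay higher (2.55%) and none lower (1.08%). Counted as single probes at 2 h, 15 of 63 in affected runs were at least 2-fold higher than at 0 h, and 1 of 93 outside. At 7 h the counts were 3 of 63 and 5 of 93. The contrast at 2 h is built in, since runs were marked by their share of such probes at 0.5 h or 2 h. The shares over all probes inside and outside the runs are not given here, so these counts describe no trait of chaperone probes.

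**Figure D1:**
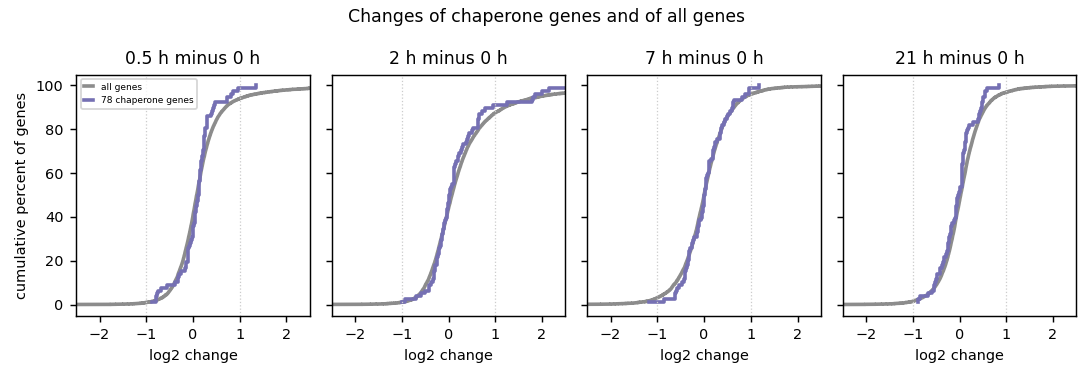
Cumulative percent of genes (vertical axis) by change from 0 h (log2, horizontal axis, cut at its ends), for the 78 chaperone genes (purple) and all genes (grey), 1 panel a time, with dotted lines at 2-fold. Both curves climb mostly between the dotted lines, and at 2 h the upper tail of 7 chaperone genes lies right of the 2-fold line.

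The only measure of error is the SD of the change over the probes of 1 gene, which is technical and includes differences between clones. Pooled over the chaperone genes with 2 or more probes it was 0.60, 0.79, 0.45 and 0.39 at 0.5, 2, 7 and 21 h, and 0.25, 0.33, 0.47 and 0.32 with probes outside affected runs. Pooled over all genes with 2 or more probes, the SD was 0.67, 0.97, 0.51 and 0.47. The probes of a gene often differed in sign: of the 43 chaperone genes with several probes, 26, 26, 28 and 23 had probes on both sides of 0 at the 4 times. The same count over all genes is not given here, so it marks no trait of chaperone genes. For the 35 genes with 1 probe no spread can be given.

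**Figure D2:**
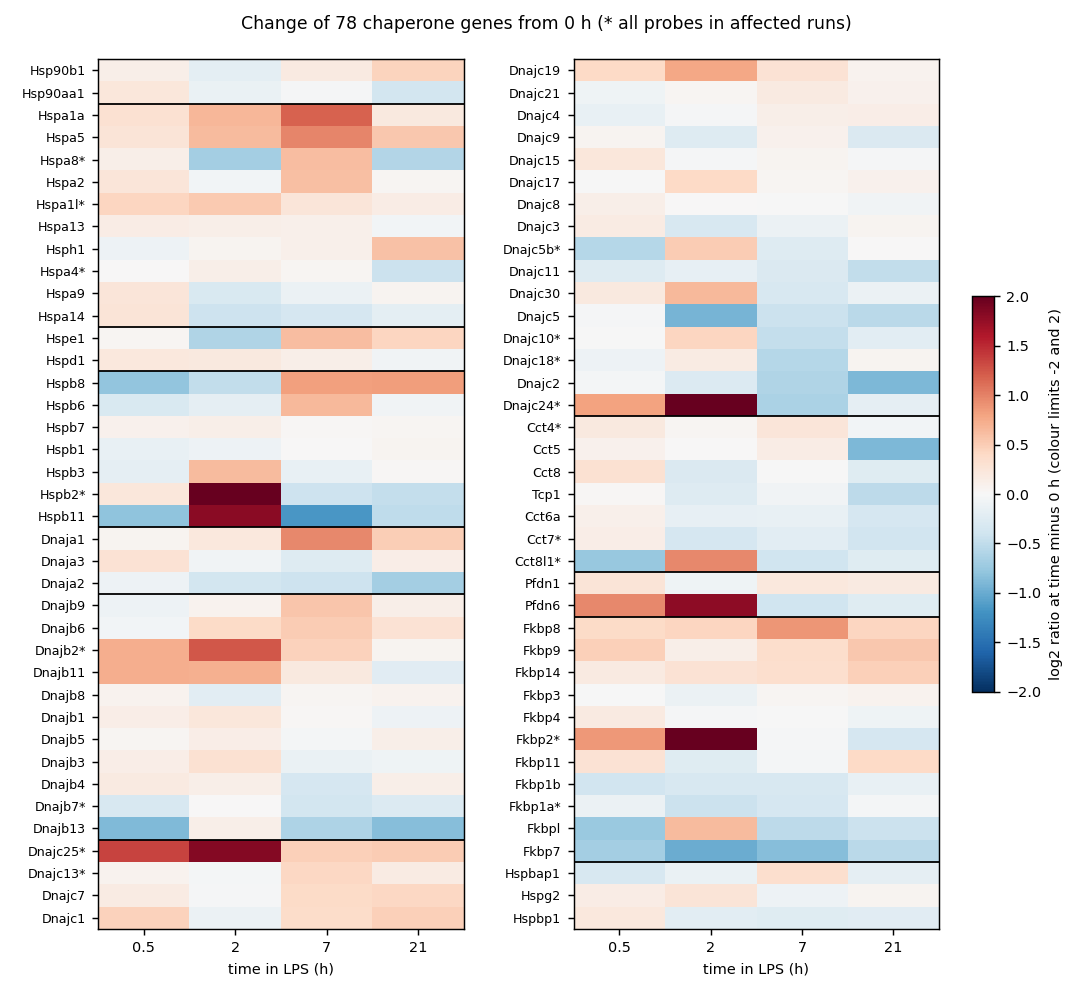
Change of each of the 78 chaperone genes (rows, grouped by family) from untreated cells, with a column for each time after LPS (hours). Each value is the level (log2) at that time minus the level in untreated cells. Colours are limited at -2 and 2, an asterisk marks genes whose probes all lie in affected runs, and Hspa5 and Hspa1a darken up to 7 h.

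Among the Hsp70 genes, Hspa5 and Hspa1a stood higher on each array up to 7 h. Hspa5 encodes BiP, the Hsp70 of the ER and a target of the unfolded protein response. Its level was 0.71 at 0 h, 0.96 at 0.5 h, 1.35 at 2 h, 1.68 at 7 h and 1.25 at 21 h, over 3 probes outside affected runs. The 7 h array held the highest value and the 0 h array the lowest, and each of the 3 probes was highest at 7 h. The change at 7 h was 0.97 (1.96-fold) with an SD over probes of 0.17 (n = 3 probes), just under 2-fold. At 21 h it was 0.54 (1.45-fold, SD over probes 0.16). A probe of Hspa5 without a value at 0.5 h was not in the mean. It read -0.56, -0.44, 0.01 and 0.24 at 0, 2, 7 and 21 h, with its highest value at 21 h.

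Hspa1a encodes the stress-inducible cytosolic Hsp70, the classic product of heat shock. Its 1 probe, outside affected runs, read 0.72, 1.02, 1.38, 1.89 and 0.91 at 0, 0.5, 2, 7 and 21 h. It was 2.26-fold above 0 h at 7 h, the largest increase of any chaperone gene at that time, and 1.14-fold at 21 h. Hspa1b is nearly identical in sequence, so the probe may read both genes. Under other scalings of the arrays the change at 7 h ranged from 0.96 to 1.41 for Hspa1a and from 0.75 to 1.13 for Hspa5. At 0.5 h and 2 h the direction depended on the scaling: with quantile normalization the changes at 2 h became -0.12 for Hspa1a and -0.13 for Hspa5.

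**Figure D3:**
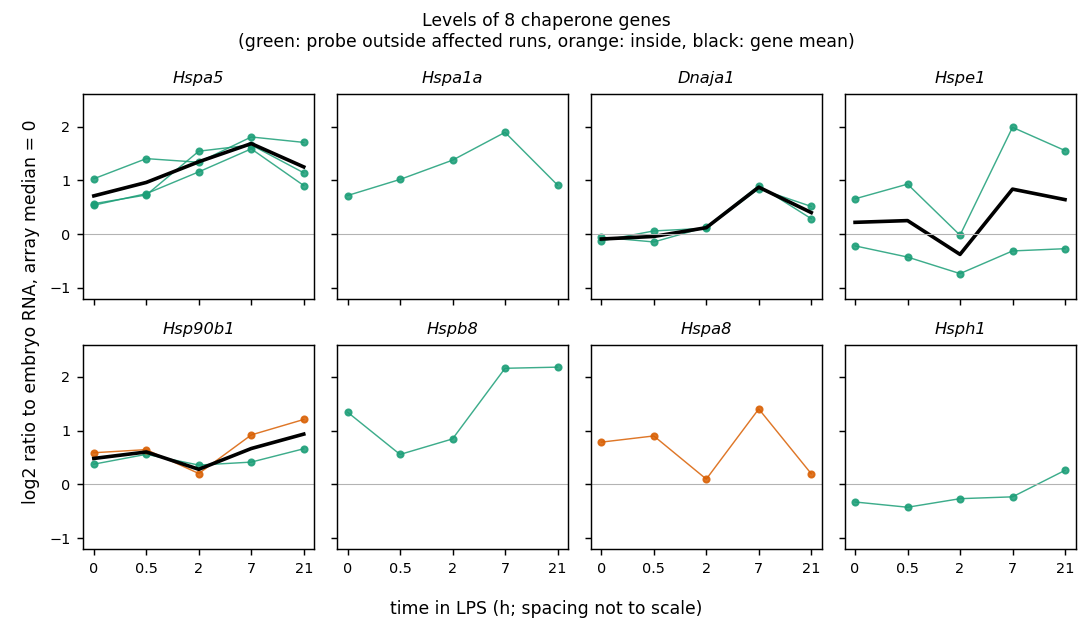
Level (log2 ratio to the embryo minus the array median, vertical axis) over hours of LPS for Hspa5, Hspa1a, Dnaja1, Hspe1, Hsp90b1, Hspb8, Hspa8 and Hsph1, with green and orange lines for single probes outside and inside affected runs and black for the gene mean. Hspa5, Hspa1a and Dnaja1 peak at 7 h, while the 2 probes of Hspe1 part.

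The other genes of the Hsp70 and Hsp110 group did not stand higher on each array up to 7 h, though Hspa2 and Hspa8 were highest at 7 h. Hspa2, named after its values were seen, read 0.41, 0.65, 0.35, 1.01 and 0.45 on 1 probe outside affected runs. At 7 h Hspa2 was 1.52-fold above 0 h. Hspa8, the housekeeping cytosolic Hsp70, read 0.79, 0.90, 0.10, 1.40 and 0.20 in order of time on 1 probe in an affected run. It was 1.53-fold higher at 7 h but lower at 2 h and 21 h, with no steady course. The probe shared with Atp2a2 read 0.19, -0.07, 0.03, -0.14 and -0.01 and had no high value at 7 h. Hspa9 encodes mortalin, the mitochondrial Hsp70 that pulls proteins across the inner membrane. Its mean levels were -0.02, 0.22, -0.33, -0.14 and 0.04, and its 4 probes disagreed at 7 h, with an SD over probes of 0.72. Hspa4, a nucleotide exchange factor of the Hsp110 group, read 0.70, 0.70, 0.81, 0.73 and 0.28, flat up to 7 h and lowest at 21 h. Hsph1, the stress-inducible Hsp110, read -0.33, -0.42, -0.27, -0.23 and 0.26. Its 21 h value stood apart, with a change of 0.59. Of the 10 genes of the group 10, 7, 6 and 8 lay within 1.5-fold of 0 h in order of time. The shares of all genes were 82.9%, 72.4%, 77.7% and 84.4%. Across the group the median change was 0.24, 0.09, 0.17 and 0.05 in order of time, with 9, 6, 8 and 6 genes above 0. Over all genes 59.2%, 56%, 49.9% and 52.5% lay above 0. These counts depended on the scaling: with quantile normalization 5 of the 10 lay above 0 at 0.5 h (median -0.04) and 3 at 2 h (-0.22), and with no centring 5 at 7 h (-0.05) and 4 at 21 h (-0.09).

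Both genes measured under an Hsp90 symbol stayed within 1.5-fold of 0 h at all 4 times. Hsp90aa1, the inducible cytosolic form, read -0.05, 0.19, -0.18, -0.07 and -0.41. Its lowest value was at 21 h, with a change of -0.36 and an SD over 2 probes of 0.10. Hsp90b1 encodes GRP94, the Hsp90 of the ER, which folds Toll-like receptors and integrins. It read 0.48, 0.60, 0.28, 0.67 and 0.93, highest at 21 h, where the change was 0.45 (1.37-fold, SD over 2 probes 0.23). The 2 genes thus stood on opposite sides of 0 at 21 h, by less than 1.5-fold each.

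The mitochondrial pair Hspd1 (Hsp60) and Hspe1 (Hsp10) lie head to head on chromosome 1. Hspd1 read -0.35, -0.14, -0.15, -0.24 and -0.43 over 4 probes, with a mean no more than 1.16-fold from 0 h. Its probes parted at 21 h, with changes from -0.89 to 0.84 and an SD of 0.71, and the mean change was 0.36 with probes outside affected runs. Hspe1 read 0.22, 0.25, -0.38, 0.84 and 0.64, with a mean at 7 h 1.53-fold above 0 h. Its probes split too: 1 probe read 0.66 at 0 h and 1.99 at 7 h, the other -0.22 and -0.31. The SD over probes at 7 h was 1.01, larger than the change of 0.62.

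The heat shock and ER stress programmes act through short promoter motifs, which were searched in the reference sequence of these genes. Some are shown here because Hspa5 was among the largest and most even differences and Hspe1 belongs to the pair above. Windows from 250 bases before to 50 after the gene start, from RefSeq on GRCm38.p6, were found for 65 of the 78 genes. The reference is the C57BL/6J strain, not C3H/ARC. A heat shock element was searched on both strands as GAA, TTC and GAA, each parted by 2 free bases, and 0.603% of all 32851 windows hold it. An ER stress element was searched on both strands as CCAAT and CCACG parted by 9 free bases, and 0.119% hold it. Capitals mark the fixed letters of the motif, and each line runs from 5′ to 3′ on the gene's strand.
Hspa5, ER stress element, chr2:34772010-34772058 (+): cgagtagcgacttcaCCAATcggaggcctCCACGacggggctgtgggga
Dnajc3, ER stress element, chr14:118937812-118937860 (+): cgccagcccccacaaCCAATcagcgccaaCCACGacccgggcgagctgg
Hsp90b1, ER stress element, chr10:86705518-86705671 (-): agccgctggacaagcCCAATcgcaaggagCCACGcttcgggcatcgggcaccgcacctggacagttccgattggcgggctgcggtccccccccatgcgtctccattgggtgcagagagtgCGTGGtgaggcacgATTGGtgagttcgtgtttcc
Hspe1, heat shock element, chr1:55088053-55088082 (+): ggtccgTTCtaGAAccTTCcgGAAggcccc
Dnajb6, heat shock element, chr5:29735846-29735870 (+): ctccgaGAAtcTTCcgGAAcgctag

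The ER stress motif was in the windows of 3 chaperone genes, Hspa5, Hsp90b1 and Dnajc3, once in Hspa5 and Dnajc3 and at 2 places in Hsp90b1. In Hspa5 it lay 65 to 47 bases before the start. The genes with this motif did not move alike: the changes at 7 h were 0.97 for Hspa5, 0.18 for Hsp90b1 and -0.12 for Dnajc3. Dnajc3, the ER J-protein P58IPK, read -0.23, -0.07, -0.54, -0.35 and -0.18 over 4 probes. The heat shock motif was in the windows of 4 genes, Hspd1, Hspe1, Dnajb6 and Hsph1. The same stretch, with 2 overlapping matches, serves both windows of the Hspd1 and Hspe1 pair, and in Hsph1 the match lies after the start. Dnajb6, a J-protein that keeps aggregation-prone chains apart, read 0.01, -0.05, 0.40, 0.52 and 0.31 over 4 probes, with an SD over probes of 0.56 at 7 h. No match says only that these letters are not in the window, and 13 genes had no window.

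The J-proteins are the largest group, with 3 Dnaja, 11 Dnajb and 20 Dnajc genes. In order of time, 8, 9, 10 and 10 of the 11 Dnajb genes lay within 1.5-fold of 0 h. For the Dnajc genes the counts were 18, 15, 18 and 19 of 20. Over all genes 82.9%, 72.4%, 77.7% and 84.4% lay within 1.5-fold. Dnaja1, a cytosolic partner of Hsp70 that carries a farnesyl group, had the clearest difference among the J-proteins. It read -0.09, -0.04, 0.12, 0.87 and 0.40 in order of time. The 7 h value stood alone, 1.95-fold above 0 h, and its 2 probes, both outside affected runs, gave the same change with an SD of 0.008. The change at 7 h ranged from 0.74 to 1.21 over the scalings tried. Dnajb1, the Hsp40 of the heat shock response, read 0.04, 0.17, 0.27, 0.06 and -0.05 with no change of the mean beyond 1.5-fold. This mean joins 2 probes that parted, with an SD of 0.69 at 2 h. The probe in an affected run had changes of 0.71, 0.35 and 0.26 at 2, 7 and 21 h. The one outside had changes of -0.26, -0.31 and -0.45. Dnaja2, a relative of Dnaja1, read 0.42, 0.31, 0.04, 0.00 and -0.27, lower at 7 h where Dnaja1 was higher, with an SD over 3 probes of 0.75 at that time.

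Several J-proteins were named after their values were seen, for their role or for the spread of their probes. Dnajb9, ERdj4, a target of the unfolded protein response, read -0.23, -0.34, -0.17, 0.32 and -0.12. It was 1.47-fold above 0 h at 7 h, with both probes on that side (SD 0.21). Dnajb11, ERdj3, had a mean 1.65-fold higher at 2 h, but its probes disagreed. Its probe outside affected runs read 0.64 at 0 h and 0.33 at 2 h. Dnajc2, which works at the ribosome on new chains, read 0.12, 0.07, -0.16, -0.48 and -0.78 on 1 probe outside affected runs. It was lower on each later array, with a change of -0.90 at 21 h (0.537-fold). Dnajc5, the cysteine string protein of vesicle release, read 0.64, 0.62, -0.29, 0.22 and 0.10 on 1 probe, lowest at 2 h. Dnajb13, known from sperm flagella, read 0.86, -0.02, 0.97, 0.24 and 0.01, and had the lowest change of the Dnajb genes at 0.5, 7 and 21 h.

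Dnajc7, a J-protein with repeats that also bind Hsp90, showed how far the probes of 1 gene can part. Its mean read 0.23, 0.39, 0.21, 0.61 and 0.65. Of its 5 probes, the only one outside affected runs read 1.05, 1.35, 1.48, 2.27 and 2.48, highest at 21 h. That probe alone made Dnajc7 at least 2-fold higher at 7 h and 21 h when affected runs were left out, with changes of 1.22 and 1.43. The SD over its 5 probes was 0.50 at 7 h and 0.61 at 21 h.

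The genes at or beyond 2-fold at 2 h came almost wholly from affected runs. Fkbp2, an ER prolyl isomerase, read 0.90, 1.76, 3.56, 0.88 and 0.55 on 1 probe in such a run. The 2 h value was 6.33-fold above 0 h, and 32.6% of all probes in its run lay at least 2-fold higher at that time. Hspb2, a small heat shock protein of muscle, read 0.27, 0.50, 2.27, -0.15 and -0.22 on 1 probe, 4.02-fold above 0 h at 2 h and below it at 7 h. In its run 29.1% of probes lay 2-fold higher at 2 h. Dnajb2, a J-protein known from neurons, read -0.26, 0.47, 0.99, 0.20 and -0.21 on 1 probe, 2.37-fold at 2 h, in a run with 12.6% of such probes.

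In 3 further genes some probes were high and others were not. Dnajc24, a J-protein of diphthamide synthesis, had mean levels of 0.78, 1.58, 2.94, 0.15 and 0.60. The mean at 2 h was 4.46-fold above 0 h, with an SD over 3 probes of 1.51. Of its probes 2 had changes of 2.66 and 3.35 at 2 h, and the third of 0.46. Dnajc25 had mean levels of 0.43, 1.78, 2.27, 0.91 and 0.93, 2.55-fold above 0 h at 0.5 h and 3.58-fold at 2 h. The SD over its 4 probes was 1.91 and 1.95, larger than the changes of 1.35 and 1.84. At 2 h its probes had changes of 4.62, 1.75, 0.66 and 0.33, so that 2 lay beyond 2-fold and 2 did not. Pfdn6, a prefoldin subunit, had mean levels of -0.01, 0.94, 1.78, -0.41 and -0.26. Its probe in an affected run read 4.39 at 2 h and the other read -0.83, so that without affected runs the change was -0.05 in place of 1.79. The part of the affected runs in these values was not tested beyond leaving them out.

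**Figure D4:**
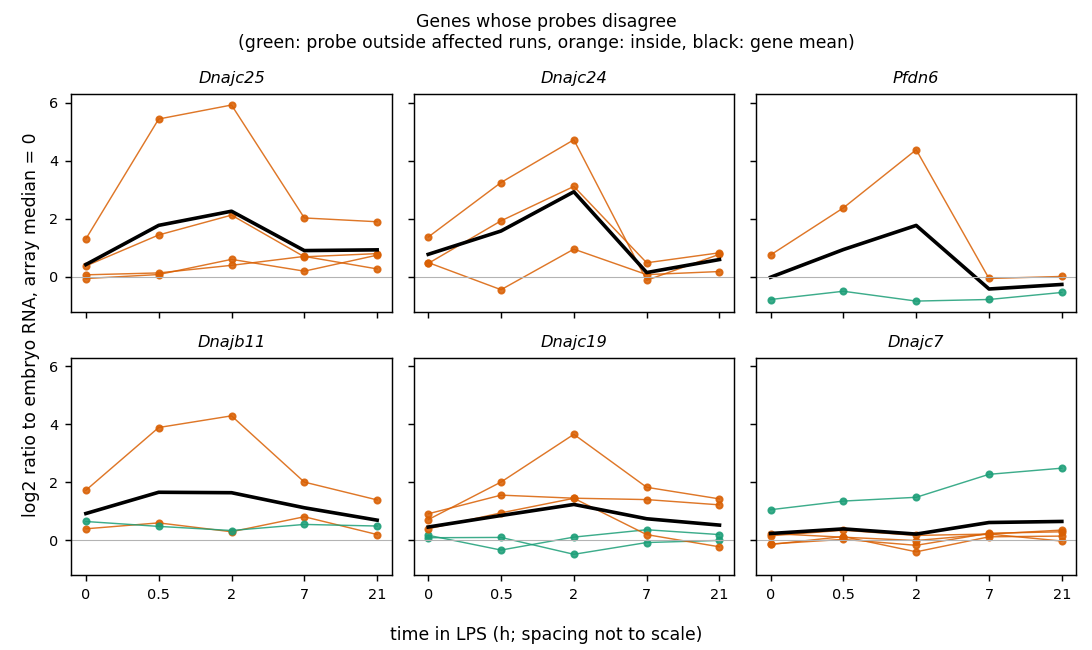
Level of each probe (log2 ratio to the embryo minus the array median, vertical axis) over hours of LPS for Dnajc25, Dnajc24, Pfdn6, Dnajb11, Dnajc19 and Dnajc7, green outside and orange inside affected runs, with the gene mean in black. The high values at 0.5 h and 2 h are of orange probes, some but not all of each gene (2 of 3 in Dnajc24 at 2 h), and in Dnajc7 a green probe stands above the others.

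Hspb11 was the 1 gene beyond 2-fold at 2 h whose probe lies outside affected runs. The symbol belongs to the small heat shock group by name, while the protein, IFT25, is a part of the transport machinery of cilia. It read 0.39, -0.41, 2.19, -0.78 and -0.12, 3.48-fold above 0 h at 2 h and 0.444-fold at 7 h. The values changed direction from array to array, and 8.14% of probes in its run lay 2-fold higher at 2 h, just under the 10% that marks a run. Fkbpl read 0.59, -0.15, 1.23, 0.07 and 0.17 and Cct8l1 0.51, -0.25, 1.47, 0.11 and 0.27, each on 1 probe. Both were lowest at 0.5 h and highest at 2 h, and both were named after their values were seen. The probe of Cct8l1 lies in an affected run and that of Fkbpl does not.

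The gene means of Hspb1 and Hspb7, other small heat shock proteins, were flat. Hspb1 (Hsp25), the most widely made of them, read -0.36, -0.52, -0.46, -0.36 and -0.30 with no change of the mean beyond 0.15 in size on the log2 scale. At 2 h its probe outside affected runs had a change of -0.52 and the one inside of 0.33. Hspb7, known from heart muscle, read -0.78, -0.70, -0.67, -0.76 and -0.73 over 4 probes, and this mean had the smallest span of any chaperone gene at 0.11. Its probes parted at 7 h, with changes from -0.63 to 0.75 and an SD of 0.57. Hspb8, which works with Bag3 to clear misfolded proteins, stood higher at late times and was named after its values were seen. It read 1.34, 0.56, 0.85, 2.16 and 2.18 on 1 probe outside affected runs. The arrays of 7 h and 21 h stood above the other 3, 1.76-fold and 1.79-fold above 0 h, while those of 0.5 h and 2 h stood below it. Its level at 0 h was also the highest of all 78 genes.

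CCT, also called TRiC, is the ring of 8 different subunits that folds actin and tubulin. Of its subunits 6 were measured (Tcp1, Cct4, Cct5, Cct6a, Cct7 and Cct8), and Cct8l1, a relative outside the complex, matched by name. At 21 h all 7 genes lay below 0 h, while 52.5% of all genes lay above it, and the median change was -0.33. None of the 7 reached 2-fold at 21 h, where 1.45% of all genes lay 2-fold lower and 3.05% higher. At 7 h 2 of the 7 lay above 0, at 2 h 3, and at 0.5 h 6.

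The size of the difference at 21 h varied between subunits. Cct5 read -0.04, 0.04, -0.03, 0.11 and -0.94 over 2 probes. The 21 h value stood well below the other 4, with a change of -0.90 (0.536-fold) and an SD over probes of 0.25. Tcp1, the first subunit, read 0.08, 0.10, -0.18, -0.00 and -0.44, with a change of -0.52 at 21 h and an SD over probes of 0.08. Cct7 read 0.00, 0.13, -0.33, -0.21 and -0.38, so that 2 h and 21 h were about equally low. Cct6a read 0.00, 0.11, -0.16, -0.14 and -0.33, lowest at 21 h. Cct8 read 0.27, 0.58, -0.02, 0.27 and 0.02, and its 21 h value did not stand apart from that at 2 h. Cct4 read 0.24, 0.44, 0.28, 0.49 and 0.19, with a change of -0.06 at 21 h. Except for Cct5 and Tcp1, these changes are smaller than the 0.39 pooled over probes of chaperone genes at 21 h. All 7 genes also lay below 0 h with no centring, with quantile normalization (median -0.38), with each run centred on its median (-0.23) and with the median over probes. Outside affected runs it was 4 of 4 genes, with a median of -0.45.

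**Figure D5:**
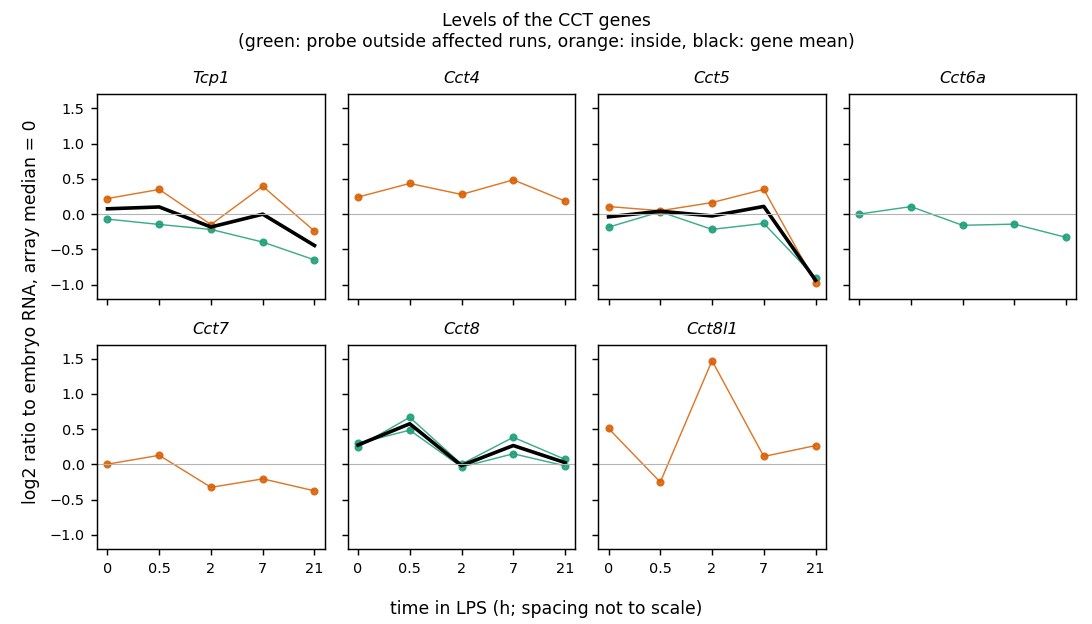
Level (log2 ratio to the embryo minus the array median, vertical axis) over hours of LPS for each measured CCT gene, with single probes in green and orange and the gene mean in black. The 21 h mean is below the 0 h mean in all 7 panels, by the most in Cct5 and by the least in Cct4.

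The 11 Fkbp genes had a median level of -0.51 at 0 h, beside -0.03 over all genes. They did not stand low as one. Fkbp2, Fkbpl, Fkbp1b and Fkbp7 lay above the array median, at 0.90, 0.59, 0.23 and 0.04, and the others below it. Over all 78 chaperone genes 3 lay at least 2-fold below the array median at 0 h (7.06% of all genes), and all 3 were Fkbp genes, while Hspb8 and Dnajc10 lay above (2 genes; 5.4%). The probes behind these 3 means were uneven. At 0 h Fkbp1a read -2.07 and -0.41, both in affected runs, and a probe left out of its mean read 4.54. Fkbp9 read -1.90 and -0.28, and Fkbp14 has 1 probe. Fkbp14, an ER isomerase that acts on collagen, read -1.79, -1.62, -1.51, -1.45 and -1.32, lowest at 0 h and higher on each later array. Fkbp1a (FKBP12), the target of FK506 and rapamycin, read -1.24, -1.36, -1.66, -1.58 and -1.28 over 2 probes and moved by no more than 0.42. Fkbp9, an ER isomerase, read -1.09, -0.62, -0.98, -0.73 and -0.55, with 2 probes that differed (SD 0.51 at 21 h). Fkbp4 (FKBP52), a partner of Hsp90 in steroid receptor complexes, read -0.61, -0.44, -0.64, -0.62 and -0.70 over 4 probes, a flat mean with an SD over probes of 0.50 at 7 h.

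A pair of Fkbp genes differed more, each on 1 probe outside affected runs, and were named after their values were seen. Fkbp8 (FKBP38), a protein of the mitochondrial outer membrane that binds Bcl2, read -0.51, -0.13, -0.07, 0.37 and -0.08. It was 1.84-fold above 0 h at 7 h. Fkbp7, an ER isomerase, read 0.04, -0.65, -0.96, -0.81 and -0.51. All 4 arrays after LPS stood below 0 h, with a change of -0.997 at 2 h (0.501-fold), just short of 2-fold. The 2 genes thus differed in opposite directions at 7 h. Pfdn1, the other gene with a Pfdn symbol beside Pfdn6, read -0.26, -0.00, -0.36, -0.05 and -0.08. The remaining genes with Hsp symbols, Hspbp1, Hspbap1 and Hspg2, had means within 1.5-fold of 0 h at all 4 times. For Hspg2 at 2 h that mean joins a probe at -0.63 outside affected runs and one at 1.14 inside.

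By compartment, assigned by hand after the values were seen, 13 of the genes belong to the ER and 8 to mitochondria. The ER genes had median changes of 0.17, 0.11, 0.18 and 0.12 in order of time, with 10, 8, 8 and 8 of 13 above 0 (59.2%, 56%, 49.9% and 52.5% of all genes). Without affected runs their medians were 0.18, -0.12, 0.04 and 0.29, with 8, 4, 6 and 8 of 11 above 0. Outside the runs 52.8%, 42.6%, 51.7% and 53.2% of 5996 genes lay above 0. With all probes the mitochondrial genes had medians of 0.22, -0.04, -0.03 and 0.02, with 7, 3, 4 and 4 of 8 above 0. At 7 h the ER genes ran from -0.85 (Fkbp7) to 0.97 (Hspa5), so the set did not move as one.

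Genes that work with the chaperones were taken from lists chosen with earlier results known. Of 22 genes listed as cochaperones of Hsp70 and Hsp90, 19 were measured. The list holds Trap1, itself an Hsp90 of mitochondria, and Vbp1, a prefoldin subunit. Median changes of the 19 genes were 0.20, 0.18, 0.24 and -0.02. In order of time 17, 17, 15 and 9 lay above 0, where 59.2%, 56%, 49.9% and 52.5% of all genes did. Of the 19 genes, 1 lay at least 2-fold higher, at 2 h (12.4% of all genes). Grpel1, the mitochondrial exchange factor of Hspa9, was 1.72-fold higher at 7 h. St13 (Hip), which steadies Hsp70 bound to a client, was 1.58-fold higher at 21 h, on probes in affected runs. Bag5, an exchange factor of Hsp70, lay lower at 7 h with a change of -0.73.

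Of 24 further ER chaperones and genes of the unfolded protein response 17 were measured, and none lay 2-fold from 0 h at any of the 4 times. Over all genes 5.95%, 12.4%, 4.08% and 3.05% lay at least 2-fold higher, and 1.01%, 1.1%, 3.16% and 1.45% lower. The median change of the 17 genes was 0.04, -0.01, 0.05 and 0.19. Above 0 lay 10, 8, 11 and 11 of them, where 59.2%, 56%, 49.9% and 52.5% of all genes did. Pdia3, a disulfide isomerase that works with calreticulin, had a change of 0.72 at 21 h. Sil1, the exchange factor of Hspa5, had a change of 0.64 at 7 h, and Creld2, a gene induced by ER stress, of -0.67 at 21 h.

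Of 10 cyclophilins, the other family of prolyl isomerases, 9 were measured, with medians of 0.11, 0.10, -0.12 and 0.04. The abundant Ppia had a change of 0.59 at 7 h. Of 8 genes of protein quality control 6 were measured, with medians of 0.06, -0.06, 0.13 and -0.02, and Vcp, which pulls ubiquitinated proteins from membranes, was 1.74-fold higher at 7 h, a change of 0.80 with an SD over 4 probes of 0.80. Both alpha-crystallin genes, of the small heat shock family, were measured, with medians of 0.03, -0.21, -0.26 and -0.11. Of 4 genes listed for the heat shock factors only Hsbp1, which binds heat shock factor, was measured. Its change was 0.53 at 21 h, with an SD over 3 probes of 0.33.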

How the data were processed

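Total RNA was labelled by an indirect amino-allyl method and hybridised with a common embryo reference to 2-colour cDNA arrays, per the labels' protocols. The authors deposited a log ratio per probe, read here as log10. Background correction and normalization are not given in the sources used here. A factor of 3.32 brought them to the log2 scale. From each array the median of the 18296 probes complete across the 5 arrays was subtracted. Probes with 1 symbol in the platform annotation of 2008 were averaged per gene. Entrez identifiers of all 78 genes matched the RefSeq table of GRCm38.p6. On the arrays 19413, 19351, 19344, 19670 and 19649 probes had a value. Signal over background is not given, so probes near the background cannot be told from the rest. Apart from that, 1 array per time limits the precision.

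The members, lists and affected runs were chosen with earlier results of these data known. Genes are described with all values where they are among 26 chosen by role (21 measured), or at or beyond 2-fold from 0 h at 2, 7 or 21 h, or at 0.5 h if also beyond 1.5-fold at 2 h (8). From each related list up to 3 genes with the largest change at 7 or 21 h were open to naming. Scripts used Python 3.11.15, numpy 2.4.6 and pandas 2.3.3 and were tested on simulated data. Alternatives were no centring, quantile normalization, centring of each run, leaving out affected runs, the median over probes, probes measured on the 2 arrays compared, current symbols, and the change from 0.5 h.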

Additional observations from a re-analysis of the deposited data

Results flagged for a closer look

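A probe of Hspa14, a ribosome-associated Hsp70, was left out of the gene means because it has no value at 0.5 h. It read 0.67 at 0 h and 2.14 at 2 h, a change of 1.47 on the log2 scale, and 0.67 at 7 h and 0.39 at 21 h. It drew attention as a difference of at least 2-fold in data that the comparisons do not use, outside affected runs. The 2 probes of Hspa14 in the gene mean gave a change of -0.41 at 2 h with an SD over probes of 0.28, and the cause was not tested.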

How the results depend on the processing

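No paired analysis was possible because each time has 1 array. The count at least 2-fold higher at 0.5 h was 0, not 1, with quantile normalization, without affected runs and with each run centred. Quantile normalization gave 2 lower there and a median of 0.0073. At 2 h the count of 7 higher became 1 with quantile normalization and 1 without affected runs, and the lower count of 0 became 3 with quantile normalization and 1 with probes measured on the 2 arrays compared. At 7 h the median was -0.21 with no centring and -0.079 from 0.5 h. The count of 1 higher became 0 with no centring, 3 with quantile normalization, and 2 without affected runs, with each run centred and with the median over probes. The count of 1 lower became 2 with no centring, 3 with quantile normalization, 0 with each run centred, 2 with pairwise probes and 2 from 0.5 h. At 21 h the median of -0.03 became -0.17 with no centring, 0.044 without affected runs and -0.10 from 0.5 h. The 0 higher became 1 without affected runs and 1 from 0.5 h, and the 0 lower became 2 with no centring, 1 with quantile normalization and 2 from 0.5 h. No centring shifted the median of all genes to -0.22 at 7 h and -0.12 at 21 h. The counts over all 8637 genes moved too. In order of time 514, 1071, 352 and 263 lay at least 2-fold higher, and 240, 430, 417 and 324 with quantile normalization. At least 2-fold lower lay 87, 95, 273 and 125, and 298, 395, 516 and 391 with quantile normalization. No centring gave 220 higher and 510 lower at 7 h, and 190 and 222 at 21 h. Without affected runs 253 of 5996 genes lay higher at 2 h. The median level of the 78 genes over the 5 arrays was 0.08, and -0.10 without affected runs. Pfdn6 at 2 h turned to -0.054 without affected runs. Of 112 values of named genes, 106 moved by less than the spread of probes under quantile normalization and 6 by more. The cause of these shifts was not tested.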

Other observations

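A probe of Fkbp1a without a value at 21 h, in an affected run, read 4.54 at 0 h, 3.65 at 0.5 h, 0.09 at 2 h and 0.07 at 7 h, while the mean of the 2 complete probes of that gene stayed between -1.66 and -1.24. A probe of Hspa9 without a value at 0.5 h read 1.61, 2.22, 0.86 and 0.85 at 0, 2, 7 and 21 h. Cct3, a CCT subunit with no value at 0 h, read -0.39, -0.46, 0.53 and -0.18 at 0.5, 2, 7 and 21 h on 1 probe in an affected run. Fkbp5, a target of glucocorticoids and partner of Hsp90, also had no value at 0 h and read -0.17, 0.19, 0.32 and -0.01 at the later times.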
